A study of Mus musculus with 6 samples.

Results

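The forkhead genes, whose symbols begin with Fox, were examined in ATAC-seq peak lists of sorted mouse back skin epidermis. ATAC-seq uses a transposase to insert sequencing adapters where chromatin is accessible. Members were the protein-coding genes named Fox with a letter from a to s and a number, of which the annotation held 44. Overlapping peaks of the 6 lists were merged into 75738 consensus regions, and 62802 of these lay within 50 kb of a protein-coding gene span. The nearest span belonged to a Fox gene for 217 regions, at 35 of the 44 genes. All mice were C57BL/6 TNC-CREER; tdTomato animals, in which Tnc drives a tamoxifen-inducible Cre that switches on the tdTomato reporter. All received tamoxifen at 100 µg per g on postnatal days 51 and 52 and were used at day 60. Touch dome cells (TD) were sorted as positive for EPCAM, SCA1, α6-integrin and tdTomato. Interfollicular epidermis cells (IFE) carried the same surface markers without tdTomato, and hair follicle cells (HF) had EPCAM and α6-integrin with neither SCA1 nor tdTomato. There were 2 libraries per population, each from 50000 sorted cells. The reporter marks cells in which the Tnc transgene was active at injection, and their progeny. The labels do not say whether libraries of the same population are separate mice, and their spread could be technical only.

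Forkhead proteins are transcription factors that bind DNA through a winged-helix domain. Several are known regulators in skin: FOXN1 is the gene product lost in nude mice and drives hair and keratinocyte differentiation, FOXC1 and FOXP1 act in the quiescence of hair follicle stem cells, FOXI3 acts in hair placodes, and FOXQ1 is altered in satin mice, whose hair shafts are abnormal. FOXO proteins are held out of the nucleus by insulin and AKT signalling and control cell cycle and stress genes. Touch domes are epidermal patches beside guard hair follicles that house the Merkel cells of the skin.

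A region was called open in a population when both of its libraries had a peak there, and closed when neither had one. Where a peak is lacking, none was called; with no read counts in the lists, the depth is unknown. With 2 libraries against 2, an exact two-sided permutation test cannot give a p below 0.333, so the comparisons are counts set beside the same counts over all 62802 regions, and no p is given.

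Most Fox gene starts were either accessible in every library or in none. RefSeq start windows (GRCm38.p6, 250 bases before to 50 after a start) were available for 33 starts of 28 Fox genes. Peaks of all 6 libraries reached into 14 windows (42.4%), no peak reached 16 (48.5%), and 3 (9.09%) were reached by peaks of some libraries. Among 21263 windows of 17492 protein-coding genes, the shares were 51.1%, 42.9% and 6.08%. The windows open throughout included those of Foxc1, Foxn1, Foxi3, Foxo1, Foxo3, Foxp4, Foxd1, Foxd2, Foxj2, Foxj3 and Foxk2. Foxl2, a regulator of the ovary, had peaks in its window in IFE 1 and HF 2 only. Those with no peak included Foxa2, Foxd3, Foxi1, Foxi2, Foxn4, Foxr1, Foxr2 and the T cell regulator Foxp3. The 250 bases before 5 starts are printed here, 5′ to 3′ on the gene's strand: Foxa1, Foxf2 and an internal Foxp1 start because peaks there differed between libraries or stopped just short, and Foxc1 and Foxn1 as follicle regulators open throughout. Capitals mark matches to the forkhead motif TGTTTAC, to CCAAT, to the AP-1 motif TGANTCA or to the GATA motif AGATAA, on either strand.

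Foxa1, chr12:57546112-57546361, minus strand: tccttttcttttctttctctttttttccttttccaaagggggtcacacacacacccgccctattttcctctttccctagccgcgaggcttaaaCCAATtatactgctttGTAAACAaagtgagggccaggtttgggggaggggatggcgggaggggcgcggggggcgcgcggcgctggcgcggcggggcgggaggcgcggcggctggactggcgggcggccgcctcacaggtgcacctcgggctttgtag

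Foxf2, chr13:31625566-31625815, plus strand: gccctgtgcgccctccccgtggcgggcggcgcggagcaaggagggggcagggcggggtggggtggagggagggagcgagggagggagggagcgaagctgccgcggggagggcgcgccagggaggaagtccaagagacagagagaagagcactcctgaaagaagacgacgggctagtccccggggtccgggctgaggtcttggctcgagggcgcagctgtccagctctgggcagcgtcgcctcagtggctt

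Foxp1 internal start, chr6:99266516-99266765, minus strand: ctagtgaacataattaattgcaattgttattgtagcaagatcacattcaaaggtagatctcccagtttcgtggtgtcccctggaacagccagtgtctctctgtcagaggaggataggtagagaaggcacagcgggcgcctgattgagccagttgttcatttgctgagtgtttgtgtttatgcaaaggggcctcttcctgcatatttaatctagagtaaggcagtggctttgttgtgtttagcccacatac

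Foxc1, chr13:31806396-31806645, plus strand: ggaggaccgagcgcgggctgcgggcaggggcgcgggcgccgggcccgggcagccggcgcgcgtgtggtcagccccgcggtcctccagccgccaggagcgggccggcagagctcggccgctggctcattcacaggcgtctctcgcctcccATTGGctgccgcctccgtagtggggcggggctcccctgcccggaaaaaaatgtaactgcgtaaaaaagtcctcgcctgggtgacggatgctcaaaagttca

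Foxn1, chr11:78386609-78386858, minus strand: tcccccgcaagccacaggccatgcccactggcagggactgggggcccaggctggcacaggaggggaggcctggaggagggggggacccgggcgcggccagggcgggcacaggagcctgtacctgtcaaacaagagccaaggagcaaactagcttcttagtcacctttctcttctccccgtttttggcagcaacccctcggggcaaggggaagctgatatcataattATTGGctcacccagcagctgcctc

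Of the 33 Fox windows, the one at Foxa1 was the only window with the forkhead motif (3.03%, against 3.01% of all 21263 windows). It read GTAAACA, beginning 141 bases before the start. No peak covered it, and a region open in TD and IFE and closed in HF began 60 bp beyond the printed stretch, 310 bp before the start. This start and the region both lie inside the Foxa1 span, whose 5′ end is 1.24 kb from the region's centre. CCAAT lay in 15 Fox windows (45.5%, against 38.2% of all), including those of Foxc1 and Foxn1. The AP-1 motif lay in 2 Fox windows (6.06%, against 6.99%), and the GATA motif in 2 (6.06%, against 9.65%). The Foxf2 start carried none of the 4 motifs in the printed stretch, and its last 25 bases lay under a peak of TD 2 and its last 15 under a peak of IFE 1. At the internal Foxp1 start, a peak of TD 2 covered the last 71 printed bases, and peaks of TD 1 and HF 2 reached the window only past the start.

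The 6 lists held from 50153 peaks (TD 1) to 59250 peaks (TD 2). Epidermal markers were accessible in all populations: Krt5, Krt14, Epcam, Itga6, Trp63 and Col17a1 had 85 regions, of which 53 were open in TD, 63 in IFE and 52 in HF. Ly6a, which encodes SCA1, had 4 regions with a peak in each TD library, 5 in each IFE library and 2 in each HF library. The other IFE markers were split. Krt1 had 3 in each TD and IFE library and 2 in each HF library, and Krt10 had 3 in each TD and IFE library and 4 in each HF library. Tnc had 17 in each TD library, 11 in each IFE library and 13 and 12 in HF. The other touch dome markers were not highest in TD. Cadm1 had 21 and 24 of 37 in TD, 15 and 14 in IFE, and 31 and 25 in HF. Krt17 had 2 in each TD library, 3 and 2 in IFE and 3 in each HF library, and Gli1 had 2 in every library. Of 75 regions at follicle markers such as Lgr5 and Lhx2, 45 were open in TD, 38 in IFE and 61 in HF, the most. Other cell types had these open regions in TD, IFE and HF: 4, 4 and 8 of 12 for Merkel markers, 18, 13 and 21 of 24 for melanocyte markers, 7, 3 and 10 of 12 for fibroblast markers, 10, 11 and 11 of 13 for endothelial and mural markers, 5, 4 and 2 of 5 for immune markers, and 4, 6 and 5 of 8 for regulatory T cell markers. Kit, Tyr, Lum, Cdh5, Kdr, Rgs5, Cd207 and Foxp3 had no region. The single regions of the leukocyte gene Ptprc and the fibroblast gene Dcn were open in TD alone. The part of other cell types in the Fox results was not tested.

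Fox regions were as constant across populations as regions in general. A peak in all 6 libraries was found at 104 of the 217 regions (47.9%), where 48.2% of all regions had one. The median width of these constant regions was 1398.5 bp, against 1298 bp for such regions of all genes. At 52 regions (24.0%), belonging to 21 genes, some population was open while another was closed, against 25.9% of all regions, and their median width was 776 bp, against 746 bp. The remaining 61 (28.1%) differed only within populations or against a population whose own libraries disagreed. Of the 217 regions, 149 (68.7%) overlapped a gene span, against 69.5% of all regions, and 34 of the 52 differing regions (65.4%) did, against 65.2% of all differing regions. Peaks were called at 137 Fox regions in TD 1 and 155 in TD 2, at 161 in IFE 1 and 149 in IFE 2, and at 156 in HF 1 and 157 in HF 2. Averages were 146 ± 12.7 in TD, 155 ± 8.49 in IFE and 156.5 ± 0.707 in HF (SD, n = 2), so the ranges of TD and IFE overlapped, and TD 1 stood lowest. TD 1 had a peak at 63.1% of Fox regions and 66.5% of all regions, and TD 2 at 71.4% and 78.4%. The same shares were 74.2% and 71.2% in IFE 1, 68.7% and 68.7% in IFE 2, 71.9% and 72.4% in HF 1, and 72.4% and 74.8% in HF 2.

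**Figure D1:**
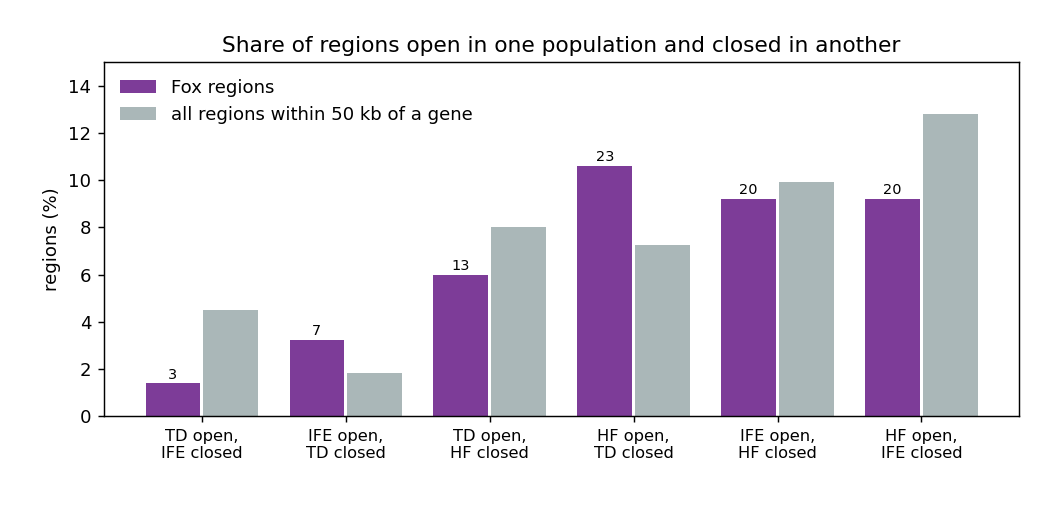
Percent of regions (y axis) open in both libraries of one population and in neither of another, for 217 Fox regions (purple, with the number of regions above each bar) and all 62802 regions within 50 kb of a gene (grey). Fox regions were below the grey bar for TD over IFE (3 regions) and above it for IFE over TD (7) and HF over TD (23).

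The comparison of TD with IFE asks what sets tdTomato-positive touch dome cells apart from other SCA1-positive basal cells. At Fox genes few regions separated them, and more of these were on the IFE side. Open in TD and closed in IFE were 3 regions (1.38%), 1 each at Foxc1, Foxp1 and Foxp2, against a background of 4.48%. The reverse held for 7 regions (3.23%) at 5 genes, against 1.82%: 3 at Foxp1 and 1 each at Foxi1, Foxn3, Foxf2 and Foxd4. Over all regions the TD side was the larger, so with all 6 libraries the order at Fox genes was opposite to it. These counts moved with single libraries. The TD and IFE sides held 14 and 12 regions without TD replicate 1 (all regions 10.8% and 2.46%) and 5 and 15 without TD replicate 2 (5.43% and 6.52%). They held 7 and 12 without IFE replicate 1 (6.07% and 3.46%) and 5 and 18 without IFE replicate 2, when 5.46% of all regions were on the TD side and fewer on the IFE side. In all 4 cases the TD side was below its background share and the IFE side above it. Without TD replicate 2 the IFE share was barely above, at 6.91% of Fox regions against 6.52%. Without TD replicate 1 the TD side was the larger at Fox genes too, and without TD replicate 2 the IFE side was the larger over all regions too. With the wider 50% of peaks in each library, the TD side held 4 Fox regions and the IFE side 3.

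Against HF, touch dome cells had fewer Fox regions of their own. Open in HF and closed in TD were 23 regions (10.6%) at 13 genes, against 7.26% of all regions. Open in TD and closed in HF were 13 regions (5.99%) at 7 genes, against 8.02%. The HF side was led by Foxp1 (5 regions), Foxn3 (4), Foxo3 (3) and Foxc1 (2), and the TD side by Foxn3 (6) and Foxq1 (2). Without TD replicate 1 the TD and HF sides were nearly even, at 26 and 24 (all regions 13.8% and 7.73%), and without TD replicate 2 they were 21 and 35 (9.35% and 13.5%). They were 20 and 33 without HF replicate 2 (9.83% and 10.1%) and 13 and 29 without HF replicate 1 (6017 and 7536 of the 62802 regions), where the HF share of 13.4% was near its background.

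IFE and HF differed equally in both directions at Fox genes. Each side held 20 regions (9.22%), where all regions gave 9.91% for IFE and 12.8% for HF. The IFE side comprised Foxn3 (7), Foxp1 (4), Foxk1 and Foxq1 (2 each) and Foxa1, Foxb1, Foxb2, Foxd4 and Foxf2 (1 each). The HF side comprised Foxp1 (7), Foxo1 (3), Foxn3 and Foxo3 (2 each) and Foxb2, Foxc1, Foxe3, Foxj3, Foxn2 and Foxo6 (1 each). Without IFE replicate 2 the IFE side rose to 33 regions and the HF side to 26, a move of over 1.5 times for the former; over all regions the shares rose too, to 14.1% for IFE, beside 15.2% of Fox regions, and to 14.8% for HF, above the share of Fox regions. With the wider 50% of peaks in each library, the IFE side fell to 4 and the HF side to 13, so the even balance did not hold there.

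Where IFE and HF differed, touch dome cells were read against both. Of the 20 IFE regions, TD was open at 10 (50.0%, background 63.7%), closed at 4 (background 12.3%) and split between its libraries at 6 (30.0%, background 24.0%). Of the 20 HF regions, TD was open at 2 (background 25.6%), closed at 14 (70.0%, background 48.7%) and split at 4 (background 25.7%). TD therefore had peaks at fewer of the HF regions of Fox genes than at those of all genes. By pattern, 14 regions were open in HF alone (6.45%, background 6.22%), 10 in TD and IFE (4.61%, background 6.31%) and 4 in IFE alone (1.84%, background 1.22%). Another 3 were open in IFE and HF and closed in TD (1.38%, background 0.336%), at Foxi1, Foxn3 and Foxp1. TD and HF without IFE shared 2 (0.922%, background 3.28%), at Foxc1 and Foxp1, and TD alone had 1 (0.461%, background 0.967%), at Foxp2. The libraries of a population disagreed at 38 Fox regions in TD (17.5%, background 16.2%), 34 in IFE (15.7%, background 11.0%) and 27 in HF (12.4%, background 13.2%). In TD, 28 of these had the peak in TD 2 (12.9% of Fox regions, background 14.0%) and 10 in TD 1 (4.61%, background 2.15%).

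**Figure D2:**
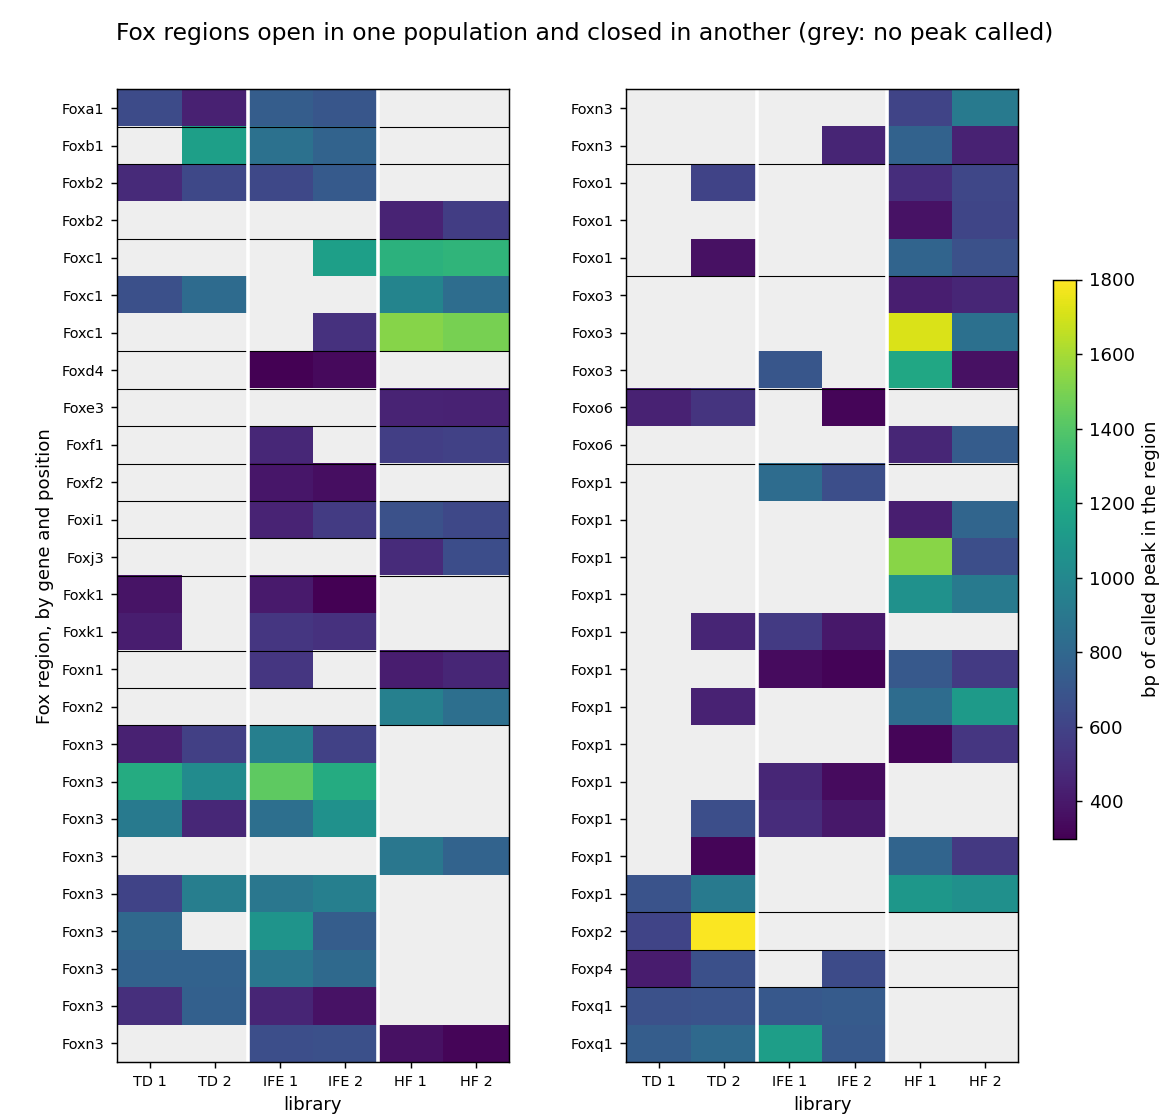
The 52 Fox regions open in some population and closed in another, in rows by gene and position, with the 6 libraries in columns; colour gives the bp of called peak and grey means that no peak was called. Foxn3 holds a run of regions with peaks in TD and IFE only, while those of Foxo1 and Foxo3 all have peaks in both HF libraries.

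Foxp1, which encodes a transcriptional repressor of the FOXP subfamily, had the most regions of the family, 45, of which 41 lay in its span of 597 kb on chromosome 6 from 98925342 to 99522746. It ranked 13 among all protein-coding genes by number of regions. A peak was called at 22 and 32 of the 45 regions in TD, 30 and 29 in IFE, and 34 and 35 in HF, so HF was highest and TD 1 stood apart below the rest. A peak of all 6 libraries was present at 20 regions, which covered the RefSeq starts at 99520993 and 99028298. HF alone was open at 4 regions. The first, chr6:99018572-99019393, had 427 bp of peak in HF 1 and 790 bp in HF 2, and its neighbour chr6:99019920-99021453 had 1534 and 663 bp. Another, chr6:99043383-99044441, had 1059 and 921 bp. These flanked the start at 99028298, with centres 9.32, 7.61 and 15.6 kb from it. The last, chr6:99235333-99235869, had 318 and 537 bp.

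IFE alone was open at 2 Foxp1 regions, chr6:98992518-98993404 and chr6:99409573-99410036. Neighbouring stretches could differ sharply. The region chr6:99091918-99092542 had peaks in TD 2 and both IFE libraries, and chr6:99092846-99093562, separated from it by 303 bp, had peaks in both IFE and both HF libraries and none in TD. Upstream of the span by 48883 bp, chr6:99571629-99572726 was open in TD (681 and 912 bp of peak) and HF (1094 and 1053 bp) and closed in IFE. In all, of its 45 regions, Foxp1 had 1 open in TD and closed in IFE and 3 the other way, 0 and 5 for TD and HF, and 4 and 7 for IFE and HF. Over all regions these shares were 4.48% and 1.82%, 8.02% and 7.26%, and 9.91% and 12.8%. TD 1 weighed on the Foxp1 counts. Subtracting the other side, the TD and IFE comparison stood at -2 for TD, at 2 without TD replicate 1 and at -6 without TD replicate 2. The same subtraction for TD and HF went from -5 to -1 without TD replicate 1 and to -10 without TD replicate 2. For IFE and HF it was -3, and from -2 to -6 on leaving out a library.

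Foxn3, a forkhead repressor linked to cell cycle checkpoints, was the next largest locus, with 41 regions, 40 of them inside its span of 374 kb on chromosome 12 from 99190081 to 99563667. Here the order was turned around. Peaks were called at 24 and 26 regions in TD, 30 and 29 in IFE, and 22 and 23 in HF, so the ranges of the 3 populations did not overlap and HF was lowest. Of the 10 Fox regions open in TD and IFE and closed in HF, 6 lay in Foxn3. Their centres were 155, 233, 270, 344, 350 and 365 kb from the 5′ end of the span. The widest, chr12:99213135-99214596, had 1224 and 1025 bp of peak in TD and 1425 and 1222 bp in IFE. By contrast, chr12:99284784-99285679 and chr12:99425997-99426916 were open in HF alone, with 896 and 775 bp and 605 and 920 bp of peak. Open in IFE and HF and closed in TD was chr12:99417766-99418435. The counts among the 41 regions were 7 IFE and 2 HF regions (background 9.91% and 12.8%), and 6 TD and 4 HF regions (background 8.02% and 7.26%). The surplus of IFE over HF was 5, and from 3 to 9 on leaving out a library. That of TD over HF was 2, became 0 without HF replicate 1, 1 without HF replicate 2 and 5 without TD replicate 1. TD against IFE stood at -1, and at -4 and -5 without IFE replicate 1 and 2.

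**Figure D3:**
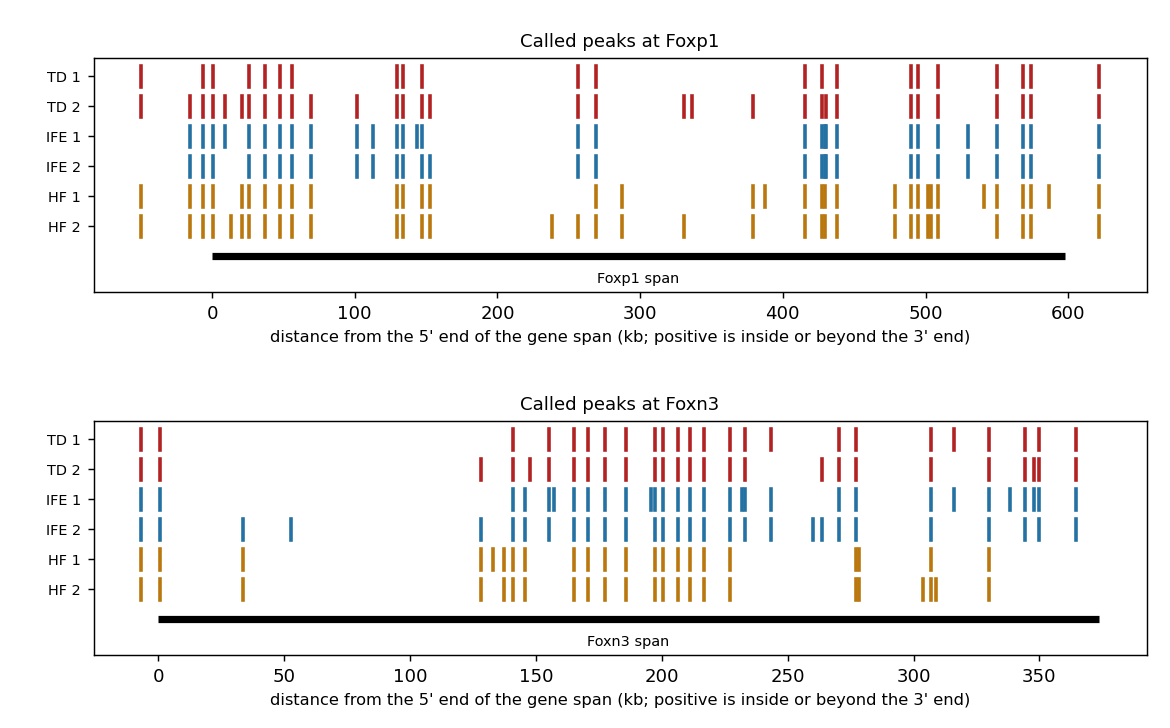
Called peaks (vertical ticks at region centres) in the 6 libraries along Foxp1 and Foxn3, with the distance in kb from the 5′ end of each gene span on the x axis and the span as a black bar. In Foxn3 both HF rows are empty at 6 positions where all TD and IFE rows have a tick, whereas in Foxp1 the HF rows have the most ticks.

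With Foxp1 and Foxn3 left out, 131 regions at 33 genes remained. They held 2 TD and 3 IFE regions in the first comparison (1.53% and 2.29%, background 4.48% and 1.82%). In the second they held 7 TD and 14 HF regions (5.34% and 10.7%, background 8.02% and 7.26%). In the third they held 9 IFE and 11 HF regions (6.87% and 8.40%, background 9.91% and 12.8%), both below the background.

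The FOXO genes are targets of insulin and AKT signalling. Foxo1, Foxo3, Foxo4 and Foxo6 together had 36 regions, with peaks at 26 and 29 in TD, 27 and 25 in IFE, and 31 and 32 in HF. The HF values exceeded all others. HF was open and IFE closed at 6 FOXO regions (16.7%, background 12.8%), and none showed the reverse (background 9.91%). HF was open and TD closed at 5 (13.9%, background 7.26%), and the reverse held for 1 (2.78%, background 8.02%). Foxo3 had all 11 of its regions in both HF libraries, against 8 and 8 in TD and 9 and 8 in IFE. One of its HF regions, chr10:42215382-42217097 inside the span, had 1716 and 854 bp of peak in HF and none elsewhere. Foxo1 had peaks at 10 and 11 of its 11 regions in HF, 8 and 10 in TD, and 8 and 7 in IFE. Its 3 differing regions were all open in HF and closed in IFE, and TD 2 alone of the TD libraries had a peak at 2 of them. With the wider 50% of peaks in each library, the Foxo1 balance turned to 2 regions on the IFE side and 1 on the TD side. Foxo6 had peaks at 9 or 10 of its 13 regions in every library, but 2 of its regions differed. Of these, 1 was open in HF alone and 1 was open in TD and closed in HF. Foxo4, on the X chromosome, had 1 region, and every library had a peak there.

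**Figure D4:**
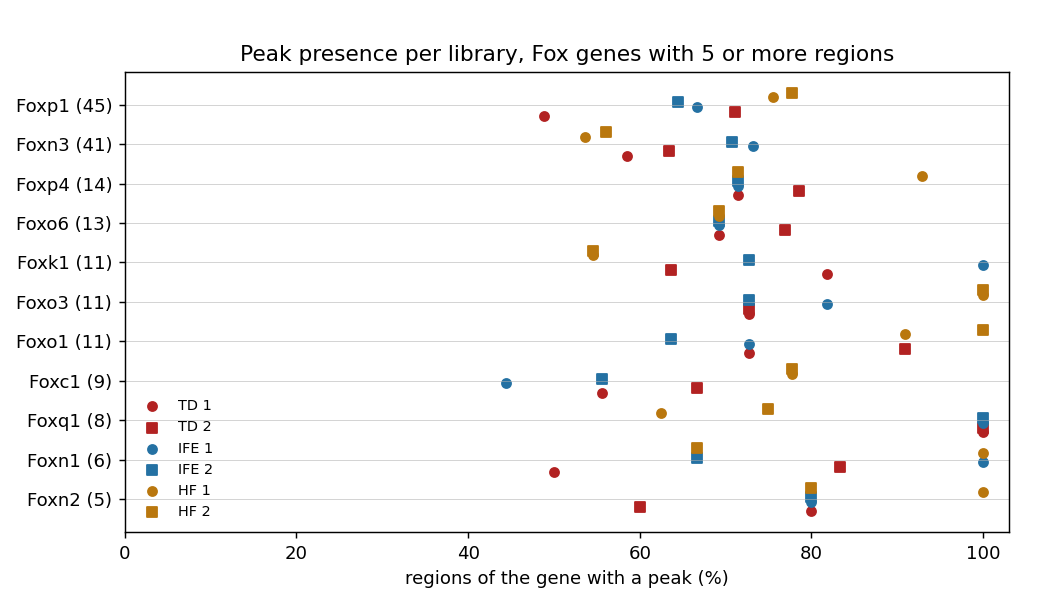
Percent of a gene's regions with a called peak (x axis) in each of the 6 libraries, for the Fox genes with at least 5 regions, whose number stands in brackets. HF libraries (orange) lie highest at Foxp1, Foxo3 and Foxc1 and lowest at Foxn3, Foxk1 and Foxq1.

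Foxq1, Foxf2 and Foxc1 lie within 252 kb on chromosome 13 and differed from each other. Foxq1 had peaks at all 8 of its regions in every TD and IFE library, and at 5 and 6 in HF. A pair of regions below the gene, chr13:31528794-31529538 and chr13:31530600-31531742, was open in TD and IFE and closed in HF. In TD they held 671 and 684 bp and 741 and 815 bp of peak. Foxc1, 175 kb beyond Foxf2, leaned to HF, with peaks at 7 and 7 of 9 regions in HF, 5 and 6 in TD and 4 and 5 in IFE. Its promoter region and 2 regions 5.85 and 8.87 kb upstream were open throughout. The promoter peak itself was narrower in HF, at 1286 and 1720 bp, than in TD (2365 and 2257 bp) or IFE (2070 and 2002 bp).

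Upstream of Foxc1, by 21.7 kb from start to centre, chr13:31784503-31785478 was open in TD and HF and closed in IFE. Beyond it, by 31.3 kb, chr13:31774733-31776017 had 1264 and 1280 bp of peak in HF and 1144 bp in IFE 2, and none in TD or IFE 1. Just past the 3′ end, chr13:31811501-31813446 had 1528 and 1491 bp in HF, 515 bp in IFE 2 and none in TD or IFE 1. The last 2 regions were thus open in HF and closed in TD. Foxf2 had 3 regions, with peaks at 2 and 1 in TD, 3 and 2 in IFE, and 1 and 2 in HF. One of them, chr13:31619510-31619969, was open in IFE alone, with short peaks of 392 and 358 bp.

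**Figure D5:**
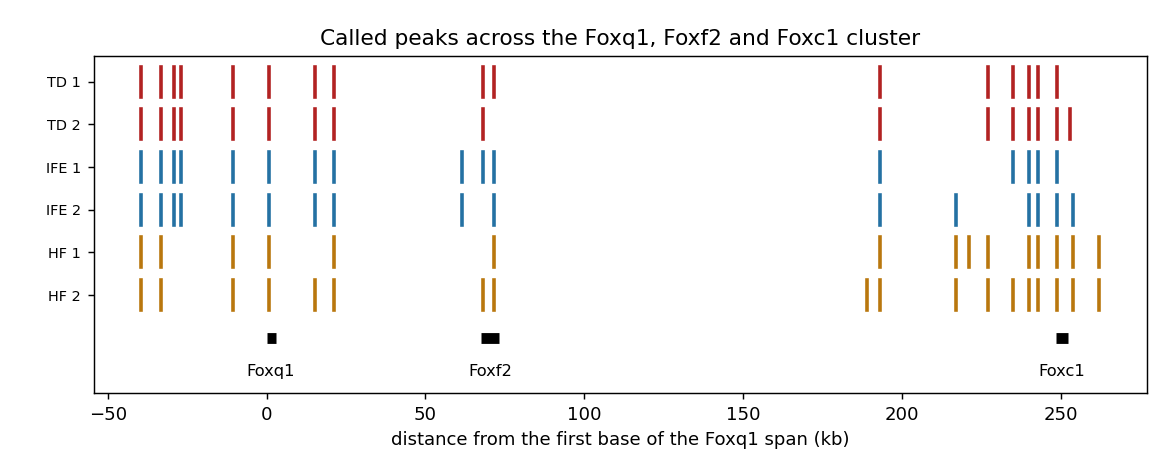
Called peaks (ticks at region centres) in the 6 libraries across the Foxq1, Foxf2 and Foxc1 cluster, with the distance in kb from the first base of the Foxq1 span on the x axis and gene spans as black bars. The 2 TD and IFE regions below Foxq1 and the HF regions around Foxc1 lie at opposite ends.

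Among other regulators of hair, Foxn1 had 6 regions, all inside its span, with peaks at 3 and 5 in TD, 6 and 4 in IFE and 6 and 4 in HF, so the populations overlapped. Its promoter region chr11:78384870-78387375 was among 3 open throughout, and chr11:78360278-78360885 was open in HF and closed in TD, with a peak in IFE 1. Foxi3 had 1 region, over its start, with peaks of 736 and 1153 bp in TD, 429 and 808 bp in IFE, and 1064 and 1115 bp in HF. Foxe1, known in thyroid and hair follicle development, had 2 regions, with both peaks in TD 1, 1 in IFE 1 and none in the other 4 libraries.

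Foxk1, a widely expressed repressor, had peaks at 9 and 7 of 11 regions in TD, 11 and 8 in IFE, and 6 and 6 in HF, the lowest. Both of its differing regions were open in IFE and closed in HF, and had a peak in TD 1 and none in TD 2. Foxp4 had 14 regions, with 10 and 11 in TD, 10 and 10 in IFE, and 13 and 10 in HF, and 9 open throughout. One Foxp4 region was open in TD and closed in HF, but HF 1 had peaks at 3 regions that no other library had, and without HF replicate 2 the balance was -2 for TD. Foxn2 had 5 regions, with 4 and 3 in TD, 4 and 4 in IFE, and 5 and 4 in HF, and chr17:88494061-88495012 was open in HF alone (952 and 850 bp of peak). Foxj3 had 4, with 2 and 3 in TD, 3 and 3 in IFE and 4 in each HF library.

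Among genes with few regions, Foxa1, a pioneer factor, had peaks of 642 and 438 bp in TD and 745 and 701 bp in IFE at chr12:57546421-57547165, and none in HF. The neighbouring gene Ttc6 overlaps this region too. Foxp2 had the single region open in TD alone, chr6:15435388-15437179, inside the gene, with 607 bp of peak in TD 1 and 1792 bp in TD 2. The TD surplus at Foxp2 over IFE and over HF became 0 when a peak had to cover 50% of its region. It was also 0 with the wider 50% of peaks in each library. Foxd4 had 1 region, open in IFE alone with 303 and 338 bp. Foxi1, an ionocyte regulator, had 3 regions with no peak in TD 1 and 2 in each other library, and chr11:34181492-34182164, downstream of the gene, was open in IFE and HF and closed in TD. Foxb1 had 1 region, with peaks in TD 2 and both IFE libraries. Foxb2 had 4, of which chr19:16898305-16899047 was open in TD and IFE and chr19:16913579-16914152 in HF alone. Foxe3 and Foxf1 each had 1 region open in HF and closed in TD.

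For 11 genes every region had a peak in all 6 libraries: Foxa3, Foxc2, Foxd1, Foxd2, Foxi3, Foxj1, Foxj2, Foxk2, Foxl2, Foxm1 and Foxo4, with 1 or 2 regions each. Foxe1, Foxl1 and Foxs1 had variable regions and no reproducible difference. Foxl1 had 2 and 3 of 3 in TD, 2 and 1 in IFE and 2 in each HF library, and the single Foxs1 region lacked a peak in HF 1. Genes at which no region was placed included Foxa2, Foxd3, Foxh1, Foxi2, Foxn4, Foxp3, Foxr1 and Foxr2. For Foxh1 this came from the placement, since a region open in all libraries overlaps it and Ppp1r16a. Likewise the shared ends of Foxm1 with Rhno1 and Tex52 and of Foxa3 with Sympk were given to those neighbours, and 3 of these 4 regions had a peak in all 6 libraries.

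Genes around the forkhead factors were read the same way, as counts of genes with more regions on either side; over all regions the HF side exceeded the IFE side by 8029 to 6224, and the TD side exceeded the HF side by 5039 to 4558. Of 14 FOXO regulators, such as the insulin receptor substrate genes, 6 had more HF than IFE regions and 3 had fewer, and 6 had more HF than TD regions and 3 had fewer. By share of their regions, 13.4% were on the HF side and 5.88% on the IFE side (background 12.8% and 9.91%). Against TD, 9.24% were on the HF side and 3.36% on the TD side (background 7.26% and 8.02%). Irs2 had 4 HF and 0 IFE regions, and its 17 regions had peaks at 16 in each HF library, 9 and 12 in TD, and 9 and 10 in IFE. Irs1 had 3 and 0, and the kinase gene Pik3cb 0 and 2. Of 13 FOXO targets, 4 had more HF than IFE regions and 3 had fewer. Of their regions, 11.8% were on the HF side and 7.89% on the IFE side, both below the background. The stress response gene Sesn1 had 3 HF and 0 IFE regions, and the cyclin gene Ccng2 0 and 2. Of the 9 FOXM1 cell cycle targets with regions, 3 had more HF than IFE regions and none had fewer. They had only 21 regions, with 23.8% on the HF side and 9.52% on the IFE side.

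The 7 follicle quiescence genes tied to FOXC1 and FOXP1 had 17 HF and 5 IFE regions (22.4% and 6.58%, background 12.8% and 9.91%), with 5 genes on the HF side and 1 on the IFE side. Nfatc1, also among the follicle markers above, held 27 of their 76 regions, with 5 on the HF side and 4 on the IFE side. Bmp6, a BMP ligand gene, had 6 HF and 0 IFE regions, with peaks at 12 and 10 of its 12 regions in HF, 6 and 6 in TD, and 4 and 4 in IFE. Fgf18, a growth factor gene of the resting follicle, had 3 and 0. Against IFE, TD had 5 regions of these genes (6.58%, background 4.48%), 2 of them at Bmp6, and IFE had none (background 1.82%). Of 12 placode and hair differentiation genes, 5 had more HF than IFE regions, such as the ectodysplasin receptor gene Edar (4 and 1) and Wnt10b (2 and 0), and 3 had fewer, such as Msx2 (0 and 2). Of their regions, 16.5% were on the HF side and 8.24% on the IFE side (background 12.8% and 9.91%). Of 7 FOXP partners, 2 leaned to HF and 3 to IFE, led by the corepressor gene Ctbp2 (0 HF and 3 IFE). Of their 31 regions, 6.45% were on the HF side and 16.1% on the IFE side.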

How the data were processed

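ATAC-seq peaks were listed for 6 libraries, 2 per sorted population. Each deposited list gives the chromosome, start, end and name of a peak in 4 columns, with no score or height. MACS2 2.2.7.1, SAMtools 1.9, Bowtie2 2.4.5 and Trim Galore 0.6.7 are named, with mm10, in the submitters' processing notes. Their settings, thresholds and any shift of reads for the transposase are not stated there. Depth is unknown, and a deeper library can gain weak peaks.

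Peaks sharing at least 1 bp were merged (Python 3.11.15, pandas 2.3.3), and each region was given to the nearest of 21900 protein-coding spans of RefSeq GRCm38.p6 (the assembly of mm10) within 50 kb. Where spans tied, the longest overlap decided. Exons and introns were not used here. Start windows were read against each library's own peaks. On simulated peaks, 0 of 1734 library states and 0 of 289 placements were wrong. Coordinates count from 1. Percentages are of regions, and counts of regions are the values computed. Every Fox gene was counted, and those with a differing region were described by library; 1 item is not reported here by name. Members, gene lists and markers were chosen with earlier results of these data known. Alternatives were peak cover, merging distance, gene window, wider peaks, equal peak numbers, autosomes and leaving out each library.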

Additional observations from a re-analysis of the deposited data

How the results depend on the processing

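No paired analysis was possible because the results are counts of called peaks and come from no test, so a replicate block could not be fitted. Chosen after seeing the data was the setting that counted the 4 regions shared with a neighbour for the Fox gene. Of these regions, 3 had a peak in all 6 libraries and the other lacked only that of HF 2. By construction the setting therefore left the 6 counts of differing regions as they were. Taken in the order TD open and IFE closed, IFE open and TD closed, TD open and HF closed, HF open and TD closed, IFE open and HF closed, HF open and IFE closed, those counts were 3, 7, 13, 23, 20 and 20. On leaving out each library they ranged from 3 to 14, 7 to 18, 13 to 26, 23 to 35, 20 to 33 and 20 to 30; leaving out a library loosens the criterion for its population and adds regions by construction. With the wider 50% of peaks the counts were 4, 3, 6, 9, 4 and 13, from 113 regions, since fewer peaks enter. In that setting the TD side exceeded the IFE side, so their order turned. The first count was 1 with a gene window of 10 kb, and 1 with regions in a Fox span or within 1 kb of it, where the last was 12. Requiring a peak to cover 50% of its region, joining peaks up to 100 bp apart, a window of 100 kb, equal numbers of the widest peaks and autosomes alone kept all 6 counts within 1.5 times. For single genes, 555 differences between sides were recomputed, some of them in settings that could not change them. Leaving out a library of the population outside a comparison left it as it was by construction. Autosomes alone did too, since every gene with a difference lies on an autosome. So did counting the shared regions for the Fox gene, since none of these regions could be called as differing. Of the 555, 483 kept their sign, 66 became 0 and 6 reversed. The 6 were Foxo1 with the wider 50% of peaks (IFE minus HF 2, TD minus HF 1), Foxp1 for TD minus IFE with the 50% cover (1) and without TD replicate 1 (2, against -6 without TD replicate 2), and Foxp4 for TD minus HF with the wider 50% of peaks (-1) and without HF replicate 2 (-2). Apart from what is said here, the cause was not tested. Without depth or peak heights, a weak site and a closed one cannot be told apart.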
